A study of Mus musculus with 6 samples.

Results

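The 10 genes described here are the D-type cyclins Ccnd1, Ccnd2 and Ccnd3, their kinase partners Cdk4 and Cdk6, and 5 inhibitors of cyclin-dependent kinases, Cdkn1a, Cdkn1b, Cdkn2a, Cdkn2c and Cdkn2d. They were chosen by name, with earlier results of these data known, as were the gene lists used below. All 10 were found among the 36083 genes of the deposited table. The RNA came from lineage-negative (Lin-) spleen cells of mice with blast crisis chronic myeloid leukemia (bcCML), the undifferentiated late stage of this leukemia. The leukemia was made by retroviral delivery of BCR-ABL and NUP98-HOXA9 to KLS cells, the Kit+ Lin- Sca1+ stem and progenitor fraction, from B6 mice, so both groups carried both oncogenes. The WT group came from wild-type donor cells and the other group from Sdc1-/- donor cells, with 3 libraries each, and all mice were killed together. The Sdc1-/- allele disrupts the signal peptide sequence of syndecan-1, a cell surface proteoglycan. The labels give NSG mice as recipients, whereas the general methods of the study name sublethally irradiated CD45.1 mice. The study gives age ranges that conflict with each other, and none is tied to these mice. A legend of the study calls RNA-seq values of Lin- WT bcCML technical replicates, and the labels do not say whether the 3 libraries of a group came from separate mice, so the spread between libraries and every p-value below may cover technical variation only.

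D cyclins rise when growth signals reach a cell and pair with CDK4 or CDK6. The active kinases phosphorylate the retinoblastoma protein, which then lets go of E2F factors that switch on the genes of DNA synthesis. INK4 proteins (made from Cdkn2a, Cdkn2c and Cdkn2d, and from Cdkn2b) bind CDK4 and CDK6 themselves, whereas Cip and Kip proteins (Cdkn1a, Cdkn1b and Cdkn1c) bind assembled cyclin and kinase complexes, above all those with CDK2. In blood, Ccnd2 and Ccnd3 are the D cyclins known from progenitors, and CDK6 is known for roles in hematopoietic and leukemic stem cells. Cdkn2a also encodes ARF, which stabilizes the tumour suppressor protein of Trp53 by blocking Mdm2, and Cdkn1a is a classic target of that protein.

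In the libraries labelled Sdc1-/- (KO-labelled libraries), Cdk6, Cdkn2c and Cdk4 were higher than in WT, Cdkn2a, Cdkn1a and Cdkn2d were lower, and the intervals of Ccnd2, Ccnd3 and Cdkn1b covered 0. Of the 10 genes, 9 reached the mean of 1 needed to be tested, and 6 of these 9 passed an adjusted p of 0.05 (limma, Benjamini-Hochberg over 12155 genes), 3 in each direction. The groups differed over much of the transcriptome. By the same rule 60.7% of all tested genes were called, 29.3% as higher and 31.3% as lower, so a share of 6 in 9 was near the background. The groups did not overlap for 6 of the 9 members, against 66.7% of all tested genes. Among all tested genes the median log2 fold change was -0.0097, with a 5th percentile of -0.78 and a 95th of 0.70, so the sizes of changes are given beside the calls. Scaling each library to a sum of 1000000 moved the median by 0.13 and the lower calls from 51.7% to 30.9% of all calls.

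All values are TPM from kallisto (transcript abundances corrected for length and library size) that were rescaled between libraries, a per-length scale on which genes can be set side by side. Library sums ran from 944973 to 1058263, read depth is unknown, and fold changes are on the scale of log2(value + 1). Sdc1 itself stood at 1.75, 1.21 and 1.51 in the WT libraries and at 3.85, 3.80 and 4.12 in the KO-labelled libraries. RNA of the targeted gene was thus higher under the knockout label (log2 fold change 0.99, SE 0.093, limma adjusted p = 1.2e-04). The study describes the allele as keeping mature protein from the cell surface, so this RNA value alone cannot check the label. Every direction below follows the labels. The study checked the deletion by PCR of genomic DNA and by staining for the protein, which were not analysed here. Gene-level values do not show whether the Sdc1 transcripts carried the disrupted sequence. Summed values of the 4 Y-linked genes were 0.276 to 0.308 in WT and 68.1 to 78.4 in the other group, and what goes with the sex of the cells cannot be told apart from genotype here. Markers of maturing neutrophils summed to 13158 to 14096 in WT and 4727 to 4865 in the KO-labelled libraries, with 10 of 10 markers called lower. Markers of monocytes and macrophages also fell (9 of 9 tested, with Mrc1 under the mean of 1), from sums of 84.9 to 88.1 to sums of 31.5 to 33.9. Of the erythroid markers 7 of 10 were lower and 2 higher, with sums of 9642 to 10330 in WT and 5404 to 5779 in the other group. Neutrophil and erythroid markers were thus abundant in RNA from a Lin- sort, whereas those of monocytes and macrophages were low. The part of these markers in the results on the 10 genes was not tested, and in bulk RNA fewer cells of a type and less RNA per cell cannot be told apart.

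Start regions from RefSeq (GRCm38.p6) were matched for 8 of the 10 genes, with 12 regions of 250 bases before and 50 after a transcript start. Ccnd1 and Ccnd2 were not matched. The E-box CACGTG, the binding motif of Myc and its relatives, was searched because Myc is known for acting on cell cycle genes. It stood in 3 of the 12 regions, against 7.15% of all 32851 start regions. The 3 regions belonged to Cdk4, Cdk6 and Cdkn2c, which are also the 3 genes that were higher in the KO-labelled libraries. That grouping was seen after the values were known and carries no test. Cdk4 held 4 copies, which began 172, 118, 98 and 11 bases before its start. Cdk6 held 1 copy, 220 bases before a start, and Cdkn2c held 1 copy that began 34 bases after the start of one of its transcripts. The E2F site letters TTTCCCGC, TTTGGCGC, TTTCGCGC and TTTGCCGC occurred in 2.26% of all regions and in 1 of the 12, the ARF start of Cdkn2a, where TTTCCCGC began 99 bases before the start. GGGCGG, the GC box, was in 9 of the 12 regions against 35.7% of all, and CCAAT in 5 of the 12 against 37.4%. Both strands were searched and the motifs do not overlap each other in the regions printed. Shown 5′ to 3′ are the stretches with an E-box or E2F site and, for contrast, the INK4A start of Cdkn2a, with E-boxes and the E2F site in capitals. Stretches before a start stop short of annotated exons, and that of Cdkn2c is a window around its motif.
Cdk4, chr10:127063285-127063533, plus strand: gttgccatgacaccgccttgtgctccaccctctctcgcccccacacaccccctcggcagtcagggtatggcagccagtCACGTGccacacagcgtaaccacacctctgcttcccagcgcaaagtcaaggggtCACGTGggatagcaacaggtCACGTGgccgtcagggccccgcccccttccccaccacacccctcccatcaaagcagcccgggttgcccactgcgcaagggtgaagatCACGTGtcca
Cdk6, chr5:3343643-3343731, plus strand: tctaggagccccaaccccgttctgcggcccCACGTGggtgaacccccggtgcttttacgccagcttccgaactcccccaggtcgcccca
Cdkn2c, chr4:109665323-109665352, minus strand: ttttgctgaataatCACGTGtgaatcgagg
Cdkn2a, ARF start, chr4:89294654-89294869, minus strand: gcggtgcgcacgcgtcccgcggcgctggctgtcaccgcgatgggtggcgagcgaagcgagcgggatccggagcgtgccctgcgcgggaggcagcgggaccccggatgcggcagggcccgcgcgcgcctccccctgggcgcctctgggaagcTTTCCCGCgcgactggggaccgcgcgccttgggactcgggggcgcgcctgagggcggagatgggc
Cdkn2a, INK4A start, chr4:89282193-89282442, minus strand: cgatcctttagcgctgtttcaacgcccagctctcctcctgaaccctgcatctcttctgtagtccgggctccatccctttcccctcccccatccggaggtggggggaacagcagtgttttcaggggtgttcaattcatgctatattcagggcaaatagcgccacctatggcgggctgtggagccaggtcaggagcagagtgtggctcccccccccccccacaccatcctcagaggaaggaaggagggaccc

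The ARF and INK4A starts of Cdkn2a differ in base composition, with 78.7% G or C and 35 CG pairs in the ARF stretch of 216 bases and 60% and 7 CG pairs in the INK4A stretch of 250 bases. INK4A starts inside the first intron of the ARF transcript. A match of letters describes the sequence only, since no factor binding was measured.

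Ccnd3 and Ccnd2 did not pass the test, and the groups overlapped for all 3 D cyclins. Ccnd3 (ENSMUSG00000034165, chr17:47505051-47599691, GRCm38, plus strand) was the most abundant, at 135, 132 and 138 in WT and 133, 138 and 131 in the KO-labelled libraries. The values interleave, and the mean was 135 ± 3.08 (SD, n = 3) in WT and 134 ± 3.57 in the other group. Its log2 fold change was -0.018, with a 95% interval of -0.097 to 0.061 (limma adjusted p = 0.66). Scaled to a sum of 1000000, it was called as higher (0.13, limma adjusted p = 0.010), though next to the median of all genes under that scaling it differed by 0.0062.

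Ccnd2 (ENSMUSG00000000184, chr6:127125162-127152193, minus strand) stood at 55.0, 48.5 and 52.7 in WT and at 51.7, 49.4 and 51.3 in the other group. The lowest and the highest library were both WT. The log2 fold change of Ccnd2 was -0.033, with an interval of -0.15 to 0.086 (limma adjusted p = 0.59). These intervals hold Ccnd3 and Ccnd2 to small changes on this scale and do not show that they were equal.

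Ccnd1 (ENSMUSG00000070348, chr7:144929931-144939925, minus strand) was the lowest of the members and under 1 in every library. It stood at 0.51, 0.50 and 0.39 in WT and 0.42, 0.28 and 0.26 in the other group. The highest KO-labelled library lay above the lowest WT library. With a mean under 1 it was left out of the main test, and without that minimum its log2 fold change was -0.15 (limma adjusted p = 0.13). Exons of LTO1 on the opposite strand overlap 1100 bases of Ccnd1 exons, and LTO1 was listed at 8.20 to 11.5, above Ccnd1. Within the summed D cyclins, Ccnd3 made up 72.0% ± 1.02 in WT and 72.3% ± 1.01 in the KO-labelled libraries (SD, n = 3). Ccnd2 made up 27.7% and 27.5%, and Ccnd1 made up 0.25% and 0.17%. The D cyclin pool was therefore almost wholly Ccnd3 and Ccnd2 in every library. Its sum ran from 181 to 191 in WT and from 182 to 187 in the other group.

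Both kinases were higher under the knockout label, and Cdk6 had the larger fold change. Cdk6 (ENSMUSG00000040274, chr5:3341485-3531008, plus strand) stood at 25.6, 27.6 and 27.5 in WT and at 43.8, 45.2 and 45.6 in the KO-labelled libraries. The groups are far apart next to their spread, with means of 26.9 ± 1.12 and 44.8 ± 0.95 and a ratio of 1.67. Its log2 fold change of 0.72 (SE 0.041, interval 0.62 to 0.81, limma adjusted p = 1.2e-05) was larger in size than that of 89.3% of all tested genes. An exact permutation test on 3 against 3 libraries gave p = 0.1 (two-sided), the smallest it can give, for Cdk6 as for the other 5 called members.

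Cdk4 (ENSMUSG00000006728, chr10:127063534-127067920, plus strand) was the most abundant member by far, at 685, 606 and 677 in WT and 815, 781 and 752 in the other group. The lowest KO-labelled library lay above the highest WT library. The mean rose from 656 ± 43.3 to 783 ± 31.3, a ratio of 1.19 and a log2 fold change of 0.26 (SE 0.055, interval 0.13 to 0.39, limma adjusted p = 0.0059). That size exceeded 53.7% of all tested genes, so Cdk4 moved about as much as the typical gene. Exons of Tspan31 overlap 641 bases of Cdk4 exons on the opposite strand. Tspan31 was listed at 60.1 to 71.5, well below Cdk4. Ccnd2, Ccnd3, Cdk6 and Cdkn1a also share between 273 and 372 exon bases with each of their neighbours on the opposite strand. Whether strand was used in counting is not stated.

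Cdk6 made up 3.61%, 4.35% and 3.91% of the sum of both kinases in WT and 5.10%, 5.47% and 5.71% in the KO-labelled libraries. A share within a library does not move with its scaling, and the groups do not overlap. Cdk4 RNA still exceeded Cdk6 RNA by 24.4 ± 2.38 times in WT and 17.5 ± 1.07 times in the other group. Summed, the kinases came to 683 ± 42.7 in WT and 827 ± 30.4 in the other group.

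**Figure D1:**
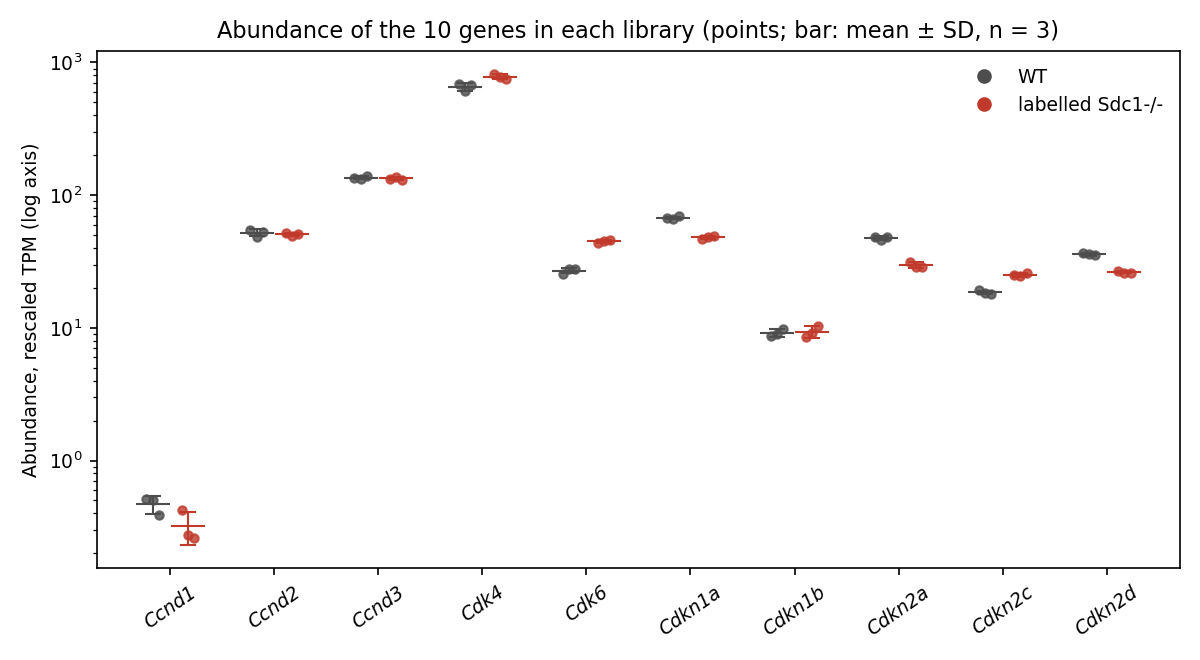
Abundance of each of the 10 genes in each library, in rescaled TPM on a log axis, with WT in grey, libraries labelled Sdc1-/- in red, points for libraries and bars for mean ± SD (n = 3). Cdk4 lies above and Ccnd1 below all other members in both groups, and the red points stand clear of the grey for Cdk4, Cdk6, Cdkn1a, Cdkn2a, Cdkn2c and Cdkn2d.

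INK4 genes moved in both directions, with Cdkn2a and Cdkn2d lower and Cdkn2c higher under the knockout label. Cdkn2a (ENSMUSG00000044303, chr4:89274471-89294653, minus strand) stood at 48.5, 46.0 and 48.1 in WT and at 31.4, 29.0 and 28.8 in the KO-labelled libraries. Every library of the latter group was far below every WT library, with means of 47.5 ± 1.31 and 29.7 ± 1.42. The log2 fold change of Cdkn2a was -0.66 (SE 0.044, interval -0.76 to -0.56, limma adjusted p = 2.4e-05), larger in size than that of 87.4% of tested genes. The gene value pools the 2 annotated transcripts that start at the 2 stretches printed above, so the INK4A and ARF transcripts are not resolved.

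Cdkn2d (ENSMUSG00000096472, chr9:21288410-21291407, minus strand) stood at 36.9, 35.8 and 35.1 in WT and at 26.7, 26.0 and 26.1 in the other group. All 3 KO-labelled libraries were lower than all WT libraries. The mean fell from 35.9 ± 0.89 to 26.2 ± 0.36 (log2 fold change -0.44, SE 0.034, interval -0.52 to -0.36, limma adjusted p = 5.2e-05).

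Cdkn2c (ENSMUSG00000028551, chr4:109660876-109667189, minus strand) went the other way, at 19.2, 18.3 and 18.1 in WT and 24.8, 24.5 and 25.9 in the KO-labelled libraries. Again the groups did not overlap. The mean rose from 18.5 ± 0.58 to 25.1 ± 0.74 (log2 fold change 0.42, SE 0.041, interval 0.32 to 0.52, limma adjusted p = 1.4e-04).

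Within the sum of Cdkn2a, Cdkn2c and Cdkn2d, the share of Cdkn2a was 46.4%, 46.0% and 47.5% in WT and 37.9%, 36.5% and 35.7% in the other group. The share of Cdkn2c was 18.4%, 18.3% and 17.9% in WT and 29.97%, 30.9% and 32.1% in the other group, while that of Cdkn2d was 35.2% ± 0.55 and 32.4% ± 0.27. Cdkn2a held the largest of these 3 shares in every library, with the caveat that its value includes ARF and that Cdkn2b, given with the G1/S genes below, is not in the sum. Set against the sum of Cdk4 and Cdk6 in the same library, these 3 genes came to 14.7%, 15.8% and 14.4% in WT and 9.65%, 9.62% and 10.1% in the other group. That sum was 102 ± 2.29 in WT and 81.1 ± 1.68 in the other group.

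**Figure D2:**
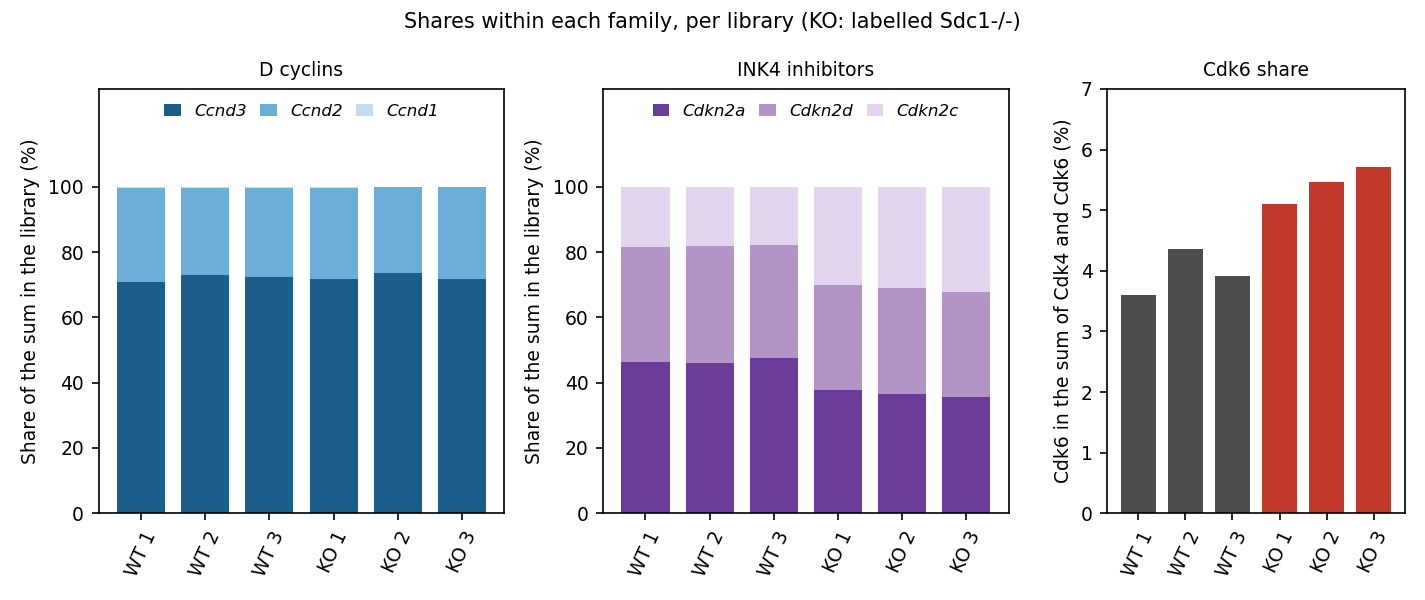
Shares within each library, in percent, of the 3 D cyclins in their sum, of Cdkn2a, Cdkn2c and Cdkn2d in their sum and of Cdk6 in the sum of Cdk4 and Cdk6, with KO standing for libraries labelled Sdc1-/-. The D cyclin mixture is alike in all libraries (Ccnd3 at 70.9% to 73.5%), whereas the Cdkn2c and Cdk6 shares are higher in all 3 KO libraries.

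The Cip and Kip members differed from each other. Cdkn1a (ENSMUSG00000023067, chr17:29090976-29100727, plus strand), an inhibitor induced by DNA damage, stood at 66.7, 65.9 and 69.1 in WT and 46.7, 48.2 and 49.0 in the KO-labelled libraries. The groups lay well apart, with means of 67.3 ± 1.69 and 48.0 ± 1.14. The log2 fold change of Cdkn1a was -0.48 (SE 0.035, interval -0.56 to -0.40, limma adjusted p = 3.5e-05).

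Cdkn1b (ENSMUSG00000003031, chr6:134920401-134925513, plus strand), an inhibitor tied to quiescence and controlled largely through protein decay, stood at 8.72, 8.92 and 9.84 in WT and 8.48, 9.18 and 10.4 in the other group. The lowest and the highest library both carried the knockout label. Its log2 fold change was 0.024 with the widest interval among the tested members, -0.16 to 0.21 (limma adjusted p = 0.81). The ratio of Cdkn1a to Cdkn1b was 7.65, 7.39 and 7.03 in WT and 5.51, 5.25 and 4.72 in the KO-labelled libraries. Together they came to 11.2% ± 0.59 of the summed kinases in WT and 6.94% ± 0.50 in the other group.

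**Figure D3:**
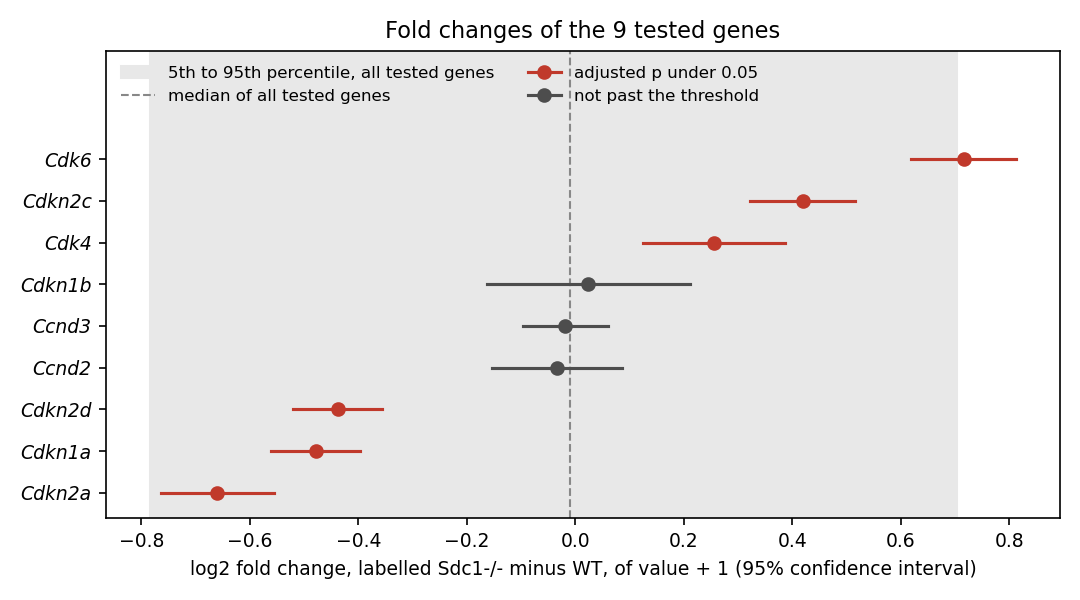
Log2 fold change of the 9 tested members, libraries labelled Sdc1-/- minus WT, with 95% confidence intervals, over the range from the 5th to the 95th percentile of all tested genes in grey. Cdk6 at 0.72 lies just past the 95th percentile of 0.70, the other 8 points lie inside the grey range, and the intervals of Cdkn1b, Ccnd3 and Ccnd2 cover 0.

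Ordered by mean, WT libraries ran Cdk4, Ccnd3, Cdkn1a, Ccnd2, Cdkn2a, Cdkn2d, Cdk6, Cdkn2c, Cdkn1b and Ccnd1. In the KO-labelled libraries the order was Cdk4, Ccnd3, Ccnd2, Cdkn1a, Cdk6, Cdkn2a, Cdkn2d, Cdkn2c, Cdkn1b and Ccnd1. Cdk6 thus moved from the seventh to the fifth place, past Cdkn2a and Cdkn2d. Neighbours in the order did not overlap between libraries in either group, though several gaps were narrow. The lowest WT value of Ccnd2 was 48.51 and the highest of Cdkn2a 48.46. In the other group the lowest Ccnd2 value was 49.36 and the highest Cdkn1a value 48.99, and the lowest Cdkn2d value was 25.99 and the highest Cdkn2c value 25.94.

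Among 7180 genes with a mean of at least 10, those most like Cdk6 over the 6 libraries included mt-Nd4l and Ccnl1, with root mean square differences of 0.025 and 0.033 on the centred log2 scale. Those most like Cdkn2a were Flot2, Itgb2 and Paqr7, at 0.022, 0.023 and 0.024. With 2 groups well apart, such a match says little beyond a like difference between the groups.

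The other genes of the G1/S step moved in both directions. Of 31 listed genes outside the 10, all were tested, 15 were higher, 7 lower and 9 not called, with a median log2 fold change of 0.081. The share called in either direction was 71.0%, against 60.7% of all tested genes, of which 29.3% were higher and 31.3% lower. Skp2, the subunit that directs the breakdown of the Cdkn1b protein, had the largest rise, from 7.44 ± 0.66 to 12.7 ± 0.97 (log2 fold change 0.70, limma adjusted p = 2.7e-04). E2f3, an E2F gene, rose from 6.13 ± 0.12 to 9.75 ± 0.17 (0.59, limma adjusted p = 3.7e-05). The largest falls were those of the inhibitor genes Cdkn2b and Cdkn1c. Cdkn2b, the INK4 gene beside Cdkn2a, fell from 10.6 ± 0.36 to 2.60 ± 0.31 (log2 fold change -1.69, SE 0.074, limma adjusted p = 4.4e-06), further than any of the 10 genes. Cdkn1c, the remaining gene of the Cip and Kip family, fell from 4.23 ± 0.32 to 2.55 ± 0.21 (-0.56, limma adjusted p = 6.6e-04). E2f2, another E2F gene, fell by nearly as much as Cdkn1c, from 14.4 ± 1.03 to 9.49 ± 0.71 (-0.55, limma adjusted p = 5.0e-04). E2f2 is named outside the rule for named genes, after its values were seen. The most abundant gene of the list, Skp1, did not pass the test, at 278 ± 20.7 and 282 ± 5.26 (0.024, limma adjusted p = 0.72).

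E2F target genes of S phase were higher or not called. Of 20 tested, 16 were higher, against 29.3% of all tested genes, 0 were lower and 4 not called, with a median log2 fold change of 0.21. Pole, the catalytic subunit of a replicative DNA polymerase, rose from 16.8 ± 0.99 to 28.1 ± 0.49 (log2 fold change 0.71, limma adjusted p = 2.8e-05), and Uhrf1, which keeps DNA methylation through replication, rose from 39.8 ± 0.68 to 62.8 ± 0.88 (0.64, limma adjusted p = 6.4e-06). The most abundant, the replication clamp Pcna, rose by less, from 391 ± 23.4 to 437 ± 11 (0.16, limma adjusted p = 0.021).

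Target genes of the Trp53 protein were mostly lower, as Cdkn1a was, while Trp53 itself was higher, at 135 ± 8.08 in WT and 173 ± 5.17 in the other group (log2 fold change 0.36, limma adjusted p = 7.1e-04). Trp53 is named outside the rule for named genes, after its values were seen. Of 20 listed besides Cdkn1a, 15 were lower, against 31.3% of all tested genes, 2 were higher and 3 not called, with a median log2 fold change of -0.32. Mdm2, among the lower genes, is also counted in the list of other G1/S genes. Trp53inp1, a stress-induced nuclear protein, fell from 16.4 ± 0.93 to 6.44 ± 1.18 (log2 fold change -1.24, limma adjusted p = 1.1e-04). Perp, linked to apoptosis and to cell junctions, fell from 47.1 ± 1.5 to 24.6 ± 1.28 (-0.91, limma adjusted p = 8.3e-06), and the most abundant, the apoptosis effector Bax, fell from 286 ± 12.1 to 244 ± 10 (-0.23, limma adjusted p = 0.0038). The 2 that rose were the DNA repair gene Ddb2, from 6.85 ± 0.45 to 8.92 ± 0.57 (0.34, limma adjusted p = 0.0038), and the death receptor gene Tnfrsf10b, from 4.79 ± 0.37 to 5.91 ± 0.080 (0.26, limma adjusted p = 0.0095).

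**Figure D4:**
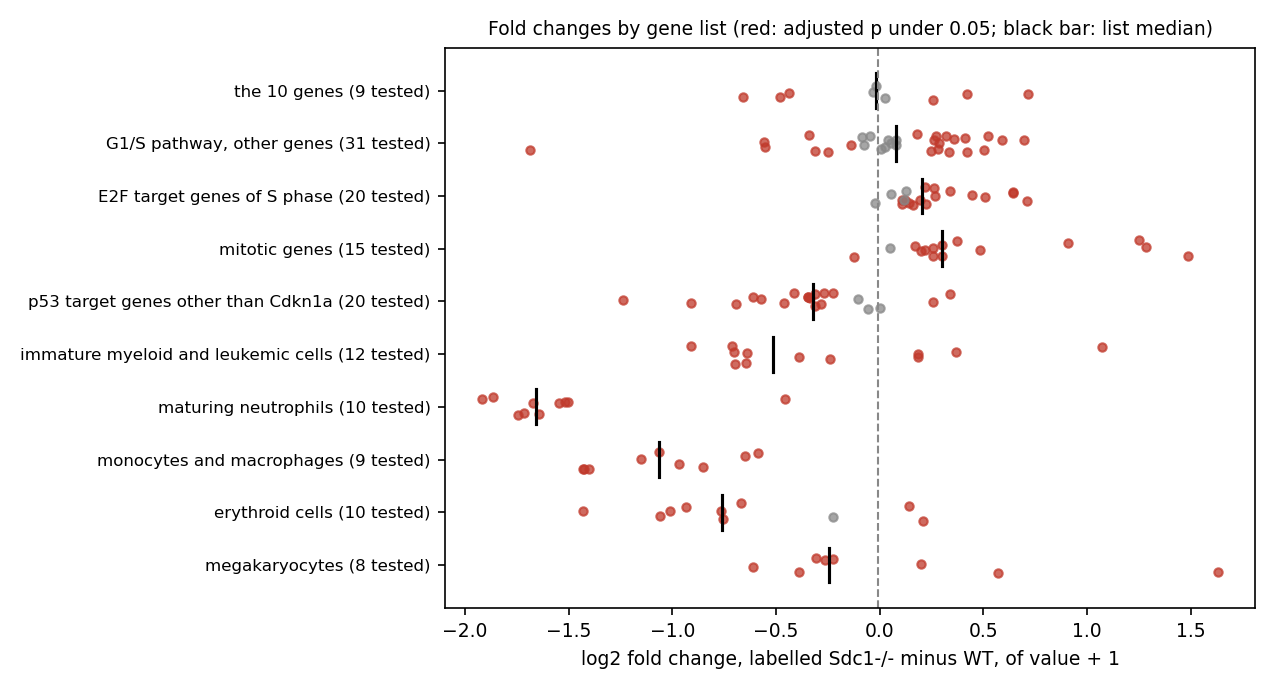
Log2 fold change, libraries labelled Sdc1-/- minus WT, of each tested gene in the 10 members and 9 gene lists, with red points for genes past an adjusted p of 0.05, grey points for the others, black bars for list medians and a dashed line at the median of all tested genes. Points of the 10 genes lie on both sides of 0, E2F targets lie mostly to the right (median 0.21), targets of the Trp53 protein mostly to the left (median -0.32), and neutrophil markers farthest to the left (median -1.66).

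Markers of immature myeloid and leukemic cells moved in both directions beside the members. Of 12 tested, 8 were lower, against 31.3% of all tested genes, and 4 were higher, against 29.3%. Their sums were 1766 to 1869 in WT and 1286 to 1306 in the other group. The most abundant, Ms4a3, Mpo, Ctsg, Elane and Prtn3 (WT means of 227 to 445), were all lower, as were Cd34, Flt3 and Cebpa. Kit, Myb, Hoxa9 and Meis1 were the 4 that were higher. Both groups carried the NUP98-HOXA9 construct, and whether its RNA adds to the Hoxa9 value was not tested. Meis1, a partner of HOXA9 in leukemic stem cells, rose from 13.1 ± 0.35 to 28.6 ± 1.08 (log2 fold change 1.07, limma adjusted p = 3.2e-06), and Myb, which keeps progenitors dividing, rose from 70.4 ± 1.25 to 91.0 ± 3.88 (0.37, limma adjusted p = 2.1e-04). Cebpa, the regulator of granulocyte commitment, fell from 11.7 ± 0.49 to 5.76 ± 0.22 (-0.91, limma adjusted p = 1.1e-05), and the granulocyte progenitor marker Ms4a3 fell from 445 ± 11.7 to 272 ± 7.50 (-0.71, limma adjusted p = 6.5e-06). Megakaryocyte markers summed to 511 to 538 in WT and 524 to 537 in the other group, with 3 of 8 tested higher and 5 lower. Of 10 T and B cell markers 9 had a mean under 1, with sums of 3.80 to 3.97 and 3.26 to 4.14, and Cd3e was listed at 0 in WT. Stromal and endothelial markers summed to 40.4 to 42.4 and 40.2 to 40.5, with 5 of 8 under a mean of 1, 1 called higher and 2 lower. None of these markers was tested for a part in the results on the members.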

How the data were processed

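RNA-seq was measured in 6 libraries of Lin- bcCML cells, 3 per group, built from 150 ng RNA with the TruSeq Stranded mRNA kit (75-base single reads). The values the authors deposited per library are a signal: kallisto TPM (version not stated) rescaled between libraries, with mm10 and sleuth 0.30.0 named in the submitters' processing notes. A second deposited table holds the authors' own comparison (p-values, q-values, effect sizes and variances) and was not used. The test had been planned for TPM and was kept for the rescaled values. Genes whose mean reached 1 were fitted with limma 3.58.1 (R 4.3.3) on log2(value + 1), by group alone. The fit used a variance trend and Benjamini-Hochberg adjustment over all 12155 genes. It was also run on simulated data with independent noise and few or no changed genes. Those settings differ from these data, so that run does not check the calls made here. The steps that bear on the members are the rescaling, which sets where 0 lies, and gene-level summing, which merges transcripts.

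Groups and replicate numbers came from the labels. The 10 genes and the lists were chosen with earlier results of these data known. Named genes were the 10 members, Sdc1, Y-linked genes, the 2 largest called rises and falls and the most abundant gene of each list, and the 3 genes most like the members with the largest rise and fall. Of these, marker genes are named only where they bear on the members, and 1 gene is not reported here. Skp1 was matched as Skp1a, and Xist was not analysed here. Of the 31-base stretches of the members' transcripts, at most 4.32% (Ccnd3) were shared with other genes (294 of them with Ccnd3-ps, listed at 0.030 to 0.088). Alternatives were other pseudocounts, minimum means and scalings, no variance trend, a replicate block and leaving out each library. Depth is not given in the sources used here, so no counting interval was possible.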

Additional observations from a re-analysis of the deposited data

How the results depend on the processing

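The 6 called members kept their direction and their call under all 16 alternatives, with log2 fold changes of 0.59 to 0.86 for Cdk6, 0.29 to 0.56 for Cdkn2c, 0.12 to 0.40 for Cdk4, -0.79 to -0.52 for Cdkn2a, -0.61 to -0.33 for Cdkn1a and -0.57 to -0.29 for Cdkn2d. Signs of the 3 uncalled members turned with the scaling. With a sum of 1000000 per library Ccnd2 was at 0.11 and Ccnd3 at 0.13, with that sum taken without ribosomal protein and mitochondrial genes at 0.076 and 0.092, and with quantile normalization at 0.013 and 0.061, where Cdkn1b was at -0.0058. Under the first of these 2367 genes were called lower, and the median of all genes moved up by construction. With every library set to the same sum of the 10 members, a scaling chosen after seeing the data and carried mostly by Cdk4, Ccnd2 was at -0.17, Ccnd3 at -0.15 and Cdkn1b at -0.097, 5 members were called lower, 2137 genes were called higher, the lower calls made up 69.6% of all calls, and 7 E2F targets were called higher. With the sum without ribosomal protein and mitochondrial genes the lower calls were 36.0% of all calls. Under both sums of 1000000 only 4 other G1/S genes were called lower. Leaving out each library in turn gave -0.082 to 0.0058 for Ccnd2 and -0.047 to 0.085 for Cdkn1b. Same-numbered libraries were not paired by the data, with correlations of their deviations of 0.15, -0.0083 and 0.018, and not every library correlated best with its own number. With a replicate block, 3653 genes were called higher and 3971 lower, Cdk6 had an adjusted p of 1.4e-04 (limma) and no member changed its call. The other list counts that moved came to at most 3 calls under the alternative. Depth is unknown, which limits what can be said of Ccnd1, under a value of 1 in every library.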

Other observations

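Mitotic genes were higher in the KO-labelled libraries in most cases. Of 15 tested, 13 were higher, against 29.3% of all tested genes, 1 was lower and 1 not called, with a median log2 fold change of 0.30. Mki67, the proliferation antigen, rose from 19.4 ± 0.63 to 56.1 ± 1.21 (1.49, limma adjusted p = 8.0e-07), and the centromere protein gene Cenpf rose from 6.71 ± 1.20 to 17.7 ± 0.89 (1.29, limma adjusted p = 6.4e-05). Cdk1, the kinase of mitotic entry and the most abundant of the list, rose from 140 ± 5.25 to 167 ± 3.61 (0.26, limma adjusted p = 8.1e-04). Its partner Ccnb1 was at 117 ± 5.0 in WT and 107 ± 3.93 in the other group (-0.13, limma adjusted p = 0.039), a call that 9 of the 16 alternatives lost.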
